A study of Xenopus tropicalis with 16 samples.

Results

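Tailbud-stage animal caps depleted of the SUV4-20H enzymes were compared with control caps of the same stage. The comparison used the libraries that GEO's labels place at stage NF24 of the Nieuwkoop and Faber series, 6 of the 16 libraries of the series. The other libraries are from gastrula caps (NF10, 3 knockdown and 3 control) and neurula caps (NF16, 2 knockdown and 2 control) with the same injections. They served to follow the tailbud genes backwards in time, to define gene sets and in fits of all 16 libraries. They also entered the scaling of the levels given below.

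Histone H4 lysine 20 is methylated stepwise. A first enzyme, KMT5A, adds a single methyl group, and the SUV4-20H1 and SUV4-20H2 enzymes (KMT5B and KMT5C) convert that state to the dimethyl and trimethyl states found over most of the genome and in heterochromatin. An animal cap is the prospective ectoderm cut from the top of a frog blastula, which differentiates in simple saline into embryonic epidermis with mucus-secreting, ion-transporting and multiciliated cells.

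The 3 knockdown libraries (Suv4-20H1/2, replicates 1 to 3) came from Xenopus tropicalis embryos that received translation-blocking antisense morpholinos against both mRNAs. The 3 control libraries (CoMo, replicates 1 to 3) came from embryos that received a control morpholino. In both groups the embryos were injected radially during early cleavage, so that all caps carry an oligomer. Each library was made from a pool of explants. The study describes tailbud knockdown caps that came apart into single cells on their own. It also describes heterogeneous clustering of the replicate profiles, which made changed genes hard to assess. The part of this dissociation in the values below was not tested. A morpholino of this kind blocks translation and need not lower the level of its target mRNA, so the transcripts of the targeted enzymes would not have served as a check of the labels.

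The files list genes by identifiers of assembly version 9 and do not pair them with gene names. None of the 14373 identifiers matched the symbol table of the later assembly (0 matches), so the prepared lists of epidermal, multiciliated-cell, neural, mesodermal and endodermal markers, and of H4K20 enzymes and cilium genes, were not analysed here. The cap identity of the libraries was therefore not checked against markers. In what follows 4 genes are given by identifier and the others by their rank or number.

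The knockdown libraries held 10692685 to 16488846 fragments assigned to genes, against 18054098 to 20715259 in the control libraries, so that every knockdown library was shallower than every control library. Between 13079 and 13308 genes were detected in the knockdown libraries and between 12880 and 13109 in the controls (exact two-sided permutation test, p = 0.2, n = 3 each). Of all fragments, 51.2, 31.3 and 40.5% were tallied as unmapped in knockdown replicates 1 to 3. In control replicates 1 to 3 the share was 23.99, 31.4 and 34.0%. All libraries list 0 multimapping fragments, so the counts do not show whether fragments with several matches are in that tally. Of the mapped fragments, 50.5, 42.7 and 53.0% fell outside genes in the knockdown libraries and 38.6, 41.9 and 45.8% in the control libraries. Knockdown replicates 1 and 3 thus lay above all controls in both shares, whereas knockdown replicate 2 lay within the control range. No pair of libraries of one group agreed within sampling noise, the smallest chi-square over its degrees of freedom being 49.8. In bulk RNA from caps, fewer cells of a type and less RNA per cell cannot be told apart.

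A gene entered the test with at least 1 read in 5 of the 6 NF24 libraries, which kept 12548 genes. Knockdown and control libraries with the same replicate number in their titles were treated as pairs. The deposited names of the libraries carry numbers too, and these match within pairs 2 and 3 but not within pair 1, so the pairing of replicate 1 rests on the titles alone. With this block, 13 genes (0.104% of those tested) passed an adjusted p of 0.05 by the quasi-likelihood test of edgeR. Of these, 12 (0.0956%) were higher in the knockdown and 1 (0.00797%) was lower. At an unadjusted p under 0.05 there were 1320 higher genes (10.5%) and 900 lower genes (7.17%). Without the block edgeR called 0 genes, with 1259 at unadjusted p under 0.05, while DESeq2 called 867 genes with the block (6.91%) and 283 without it (2.26%). All 13 genes were among the 867 and 9 of them among the 283. Without pair 1 edgeR called 38 genes, 11 of them among the 13, without pair 2 2193 and without pair 3 15. The number of called genes thus depended on the tool, the block and single pairs, and the per-library levels are given for that reason.

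Levels are given as CPM, fragments per 1000000 assigned fragments after TMM scaling. CPM is not corrected for gene length, and levels are compared between libraries and not between genes.

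The largest change belonged to Xetrov90026712m.g. Its level was 2.10, 279.5 and 69.0 CPM in knockdown replicates 1 to 3, against 0.0501, 0.607 and 0.161 CPM in control replicates 1 to 3. The groups did not overlap, but knockdown replicate 1 stood far below the other knockdown libraries. These levels rested on 23, 4612 and 768 fragments in the knockdown and on 1, 11 and 3 fragments in the controls. The fitted log2 change was 8.60 (SE 0.42, adjusted p 0.000993 by edgeR). Within the pairs the differences of log2 CPM, with the prior count, were 3.68, 8.58 and 7.92. The SE comes from the fit and is not the spread of these pair values. In the controls 69.4% of the few stranded fragments of this gene lay on the opposite strand, against 0.717% in the knockdown, and when both strands were counted together the log2 change was 6.17 and no longer passed. At the earlier stages the gene was hardly detected, with at most 0.910 CPM in any NF16 library and 0.0876 CPM in any NF10 library.

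Xetrov90021551m.g showed the same pattern. Its level was 2.28, 550.3 and 102.0 CPM in the knockdown replicates and 0.351, 2.21 and 0.322 CPM in the control replicates. Knockdown replicate 1 cleared the highest control, replicate 2, by a narrow margin only, whereas the other knockdown libraries were far above all controls. The fitted log2 change was 7.34 (SE 0.88, adjusted p 0.0489 by edgeR). It no longer passed with RLE or total-count scaling, with filterByExpr, with the filter over all 16 libraries or with robust empirical Bayes, where the log2 change stayed between 7.32 and 7.34. Without the block it did not pass either (log2 change 7.84, adjusted p 0.340 by edgeR), nor without pair 3 (6.79, adjusted p 0.0523 by edgeR). The same held for every fit with no block and a library left out. With no filter it passed, at a log2 change of 7.31 (adjusted p 0.00826 by edgeR).

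These genes belong to a group of 6 among the 12 higher genes, in which knockdown replicate 1 stood at under 0.1 times the level of knockdown replicates 2 and 3. The fitted log2 changes of the 6 ranged between 4.58 and 8.60, and all 6 averaged under 5 CPM in the controls. That low level was not particular to them. The genes ranked 6, 8, 9 and 11, outside the group, averaged 0.851, 2.00, 1.42 and 4.75 CPM in the controls. The level in knockdown replicate 1 exceeded every control in 2 of them. Within pair 1 the differences of log2 CPM of the 6 were 0.79 to 3.68. The prior count draws these toward 0 at such low levels, so they are not on the scale of the fitted changes. In all 6 the highest control was replicate 2, as it was in the gene ranked 6, outside the group. This grouping was made after the values were seen. The gene ranked 5 by fold change shows the pattern in its plainest form, with 0.0914, 90.5 and 62.2 CPM in the knockdown replicates and 0, 1.27 and 0.0536 CPM in the control replicates. Its knockdown replicate 1 level rested on 1 fragment and lay within the control range. The gene ranked 2 had 0.457, 166.2 and 87.8 CPM in the knockdown replicates, against 0, 1.27 and 0.0536 CPM in the control replicates. Here too the groups overlapped, through knockdown replicate 1 and control replicate 2. The genes ranked 4 and 7 had knockdown levels of 1.097, 334.1 and 127.1 CPM and of 1.28, 52.4 and 23.7 CPM, against control levels of 0.150, 2.59 and 0.268 CPM and of 0.0501, 4.19 and 0.322 CPM. High transcript levels of these genes were thus found in knockdown replicates 2 and 3 and in no other library of the stage. For the genes ranked 3, 4, 5 and 7, 28.4, 11.3, 45.5 and 17.8% of the stranded control fragments lay on the opposite strand. In the knockdown the shares were 0.467, 0.201, 0.907 and 2.39%. The gene ranked 2 had 0% in the controls and 0.295% in the knockdown. Outside the group, the gene ranked 6 had 31.4 and 2.01%.

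**Figure D1:**
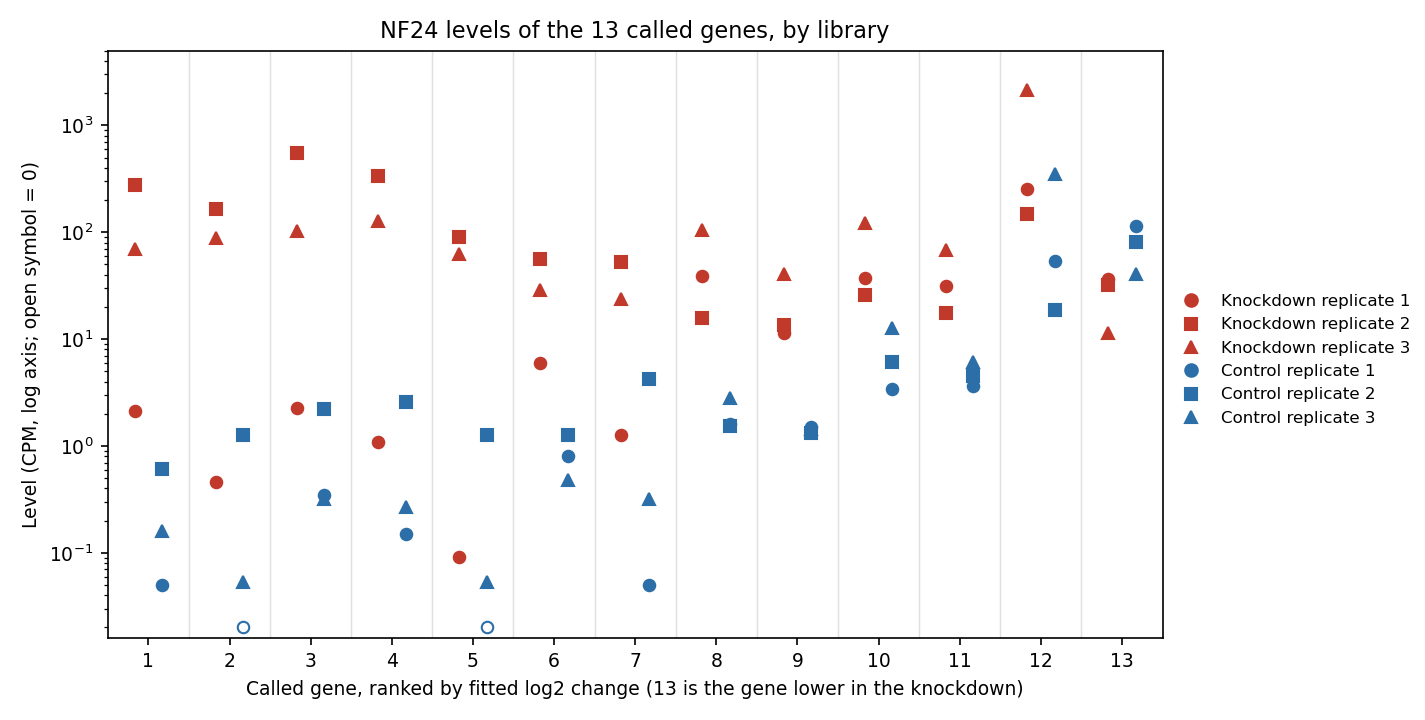
Levels of the 13 genes called at NF24 in each of the 6 libraries, in CPM on a log axis, with knockdown libraries (red) left of control libraries (blue) and open symbols for a level of 0. Genes are ranked by fitted log2 change. For 6 of the 12 higher genes knockdown replicate 1 (red circle) stands at under 0.1 times the level of the other knockdown libraries, although above its own control.

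In the other 6 higher genes knockdown replicate 1 was not that far below the other knockdown libraries, and their fitted log2 changes were 2.63 to 4.82. Knockdown and control groups did not overlap for 5 of them, and knockdown replicate 3 held the highest level in 5 of them. The gene ranked 8 had 39.3, 15.9 and 103.9 CPM in the knockdown replicates and 1.60, 1.54 and 2.84 CPM in the control replicates, a log2 change of 4.44 (SE 0.39, adjusted p 0.0177 by edgeR). Every knockdown library was above every control. This gene belongs to those that are abundant in the gastrula, with 90.8, 42.1 and 57.5 CPM in NF10 knockdown and 96.8, 48.3 and 21.4 CPM in NF10 control libraries. At NF16 it stood at 397.3 and 186.4 CPM in the knockdown, against 18.7 and 29.3 CPM in the control. Its tailbud level thus lay within the range of the gastrula libraries in knockdown replicate 1, below it in replicate 2 and above it in replicate 3. The tailbud controls were lower than all libraries of the earlier stages.

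The genes ranked 9, 10 and 11 followed with smaller changes. The gene ranked 9 had 11.4, 13.5 and 40.6 CPM in the knockdown replicates and 1.50, 1.32 and 1.45 CPM in the control replicates. Its controls were tightly grouped (1.42 ± 0.0914 CPM, SD, n = 3), and the log2 change was 3.70 (SE 0.43, adjusted p 0.0489 by edgeR). The gene ranked 10 had 37.6, 26.1 and 122.4 CPM in the knockdown replicates and 3.40, 6.07 and 12.7 CPM in the control replicates, with pair changes of 3.43, 2.08 and 3.27 on the log2 scale. The gene ranked 11 had 31.5, 17.6 and 68.9 CPM in the knockdown replicates and 3.66, 4.47 and 6.11 CPM in the control replicates. None of these 3 genes had overlapping groups. The gene ranked 11 was the only higher gene among the 12 that rose in control caps between NF10 and NF16, and it stood at 211.1 and 324.4 CPM in NF16 knockdown and at 105.1 and 167.4 CPM in NF16 control libraries, above all tailbud libraries.

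The gene ranked 12 had 256.1, 147.8 and 2154 CPM in the knockdown replicates and 53.6, 18.6 and 348.4 CPM in the control replicates. The groups overlapped, since control replicate 3 exceeded knockdown replicates 1 and 2. Within the pairs the log2 changes were nevertheless close to each other, at 2.26, 2.98 and 2.64, and the fitted log2 change was 2.63 (SE 0.21, adjusted p 0.0121 by edgeR). Without the block its adjusted p was 0.531 by edgeR. The remaining gene of this group, ranked 6, had 6.03, 56.2 and 29.1 CPM in the knockdown replicates and 0.801, 1.27 and 0.483 CPM in the control replicates.

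The single lower gene was Xetrov90003015m.g. Its level was 36.3, 31.8 and 11.5 CPM in the knockdown replicates, against 115.1, 81.5 and 40.3 CPM in the control replicates. All knockdown libraries lay below all controls. The log2 change was -1.60 (SE 0.19, adjusted p 0.0489 by edgeR), with pair changes of -1.65, -1.35 and -1.79. Control caps had 1.69, 7.18 and 5.79 CPM of this transcript at NF10 and 20.5 and 20.8 CPM at NF16, so it was a gene whose level rose as caps differentiated. At NF16 the knockdown caps had 3.80 and 0.728 CPM. The NF24 knockdown level thus exceeded the NF16 control level in knockdown replicates 1 and 2 but not in replicate 3.

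The next lower gene by p-value that met the other criteria was Xetrov90017390m.g, which did not pass (adjusted p 0.0525 by edgeR). Its level was 366.9, 466.8 and 408.1 CPM in the knockdown replicates and 981.5, 1131 and 1349 CPM in the control replicates, a log2 change of -1.47 (SE 0.18). The groups were separated by a wide gap, and the spread within the knockdown was small (414.0 ± 50.2 CPM, against 1154 ± 184.9 CPM in controls, SD, n = 3 each). At NF16 the level was 557.1 and 322.9 CPM in the knockdown and 1137 and 1584 CPM in the controls. The difference between the NF24 and NF16 changes was 0.19 on the log2 scale (adjusted p 0.808 by edgeR).

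**Figure D2:**
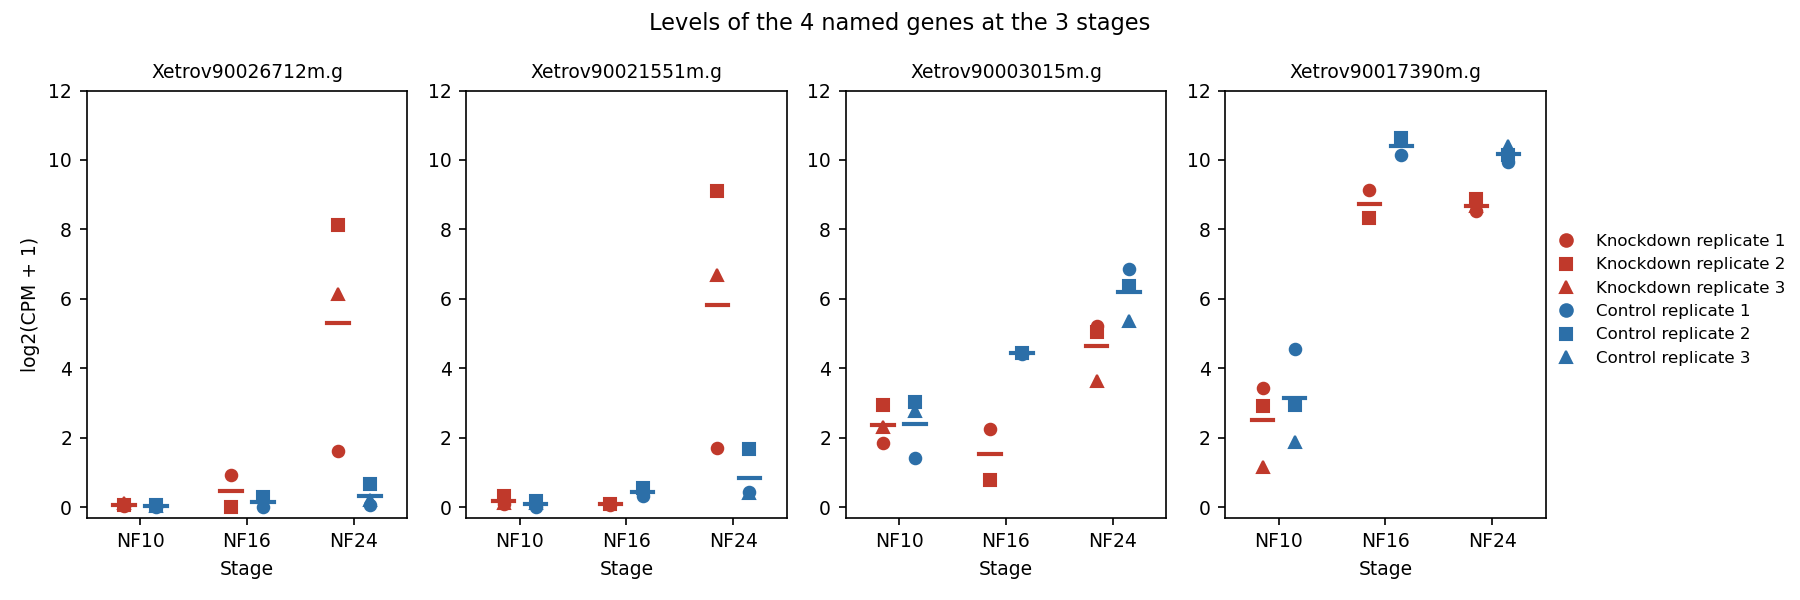
Levels of the 4 genes given by identifier at NF10, NF16 and NF24, as log2(CPM + 1) of each library, with knockdown (red) left of control (blue), a symbol for each replicate number and a bar at the group mean. The genes that were higher at NF24 are near 0 at both earlier stages, and the lower genes stand higher at NF16 and NF24 than at NF10 in controls, with the knockdown below its control at both later stages.

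Groups that did not overlap were found for 8 of the 13 called genes. Over all tested genes 8.76% had non-overlapping groups with the knockdown higher and 7.23% with the knockdown lower. The call with a block uses the pairs and not the separation of the groups, and the gene ranked 12 is the clearest instance of a call without separation.

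To describe the change within each pair, genes with an at least 2-fold difference were counted. In pair 1 there were 1958 genes higher and 695 lower in the knockdown. In pair 3 there were 1868 higher and 1165 lower. Pair 2 differed less, with 772 higher and 507 lower genes. Libraries of one group differed by similar numbers: 2455, 2801 and 3586 genes passed 2-fold between knockdown libraries, and 1609, 2399 and 1833 between control libraries. The number of genes past 2-fold within a pair, 2653, 1279 and 3033, was therefore of the size of the difference between replicates.

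Over the tested genes, which cannot stand as independent replicates, the log2 changes of pairs 1 and 3 correlated at r = 0.565, those of pairs 2 and 3 at 0.327 and those of pairs 1 and 2 at 0.181 (n = 12548 genes). The pairs share no library. Pairs 1 and 3 are also those whose knockdown libraries had the raised unmapped and outside-gene shares. Their knockdown libraries were also shallower, with 10692685 and 11874933 assigned fragments, against 16488846 in knockdown replicate 2. The part of these shares and of depth in the correlation was not tested.

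**Figure D3:**
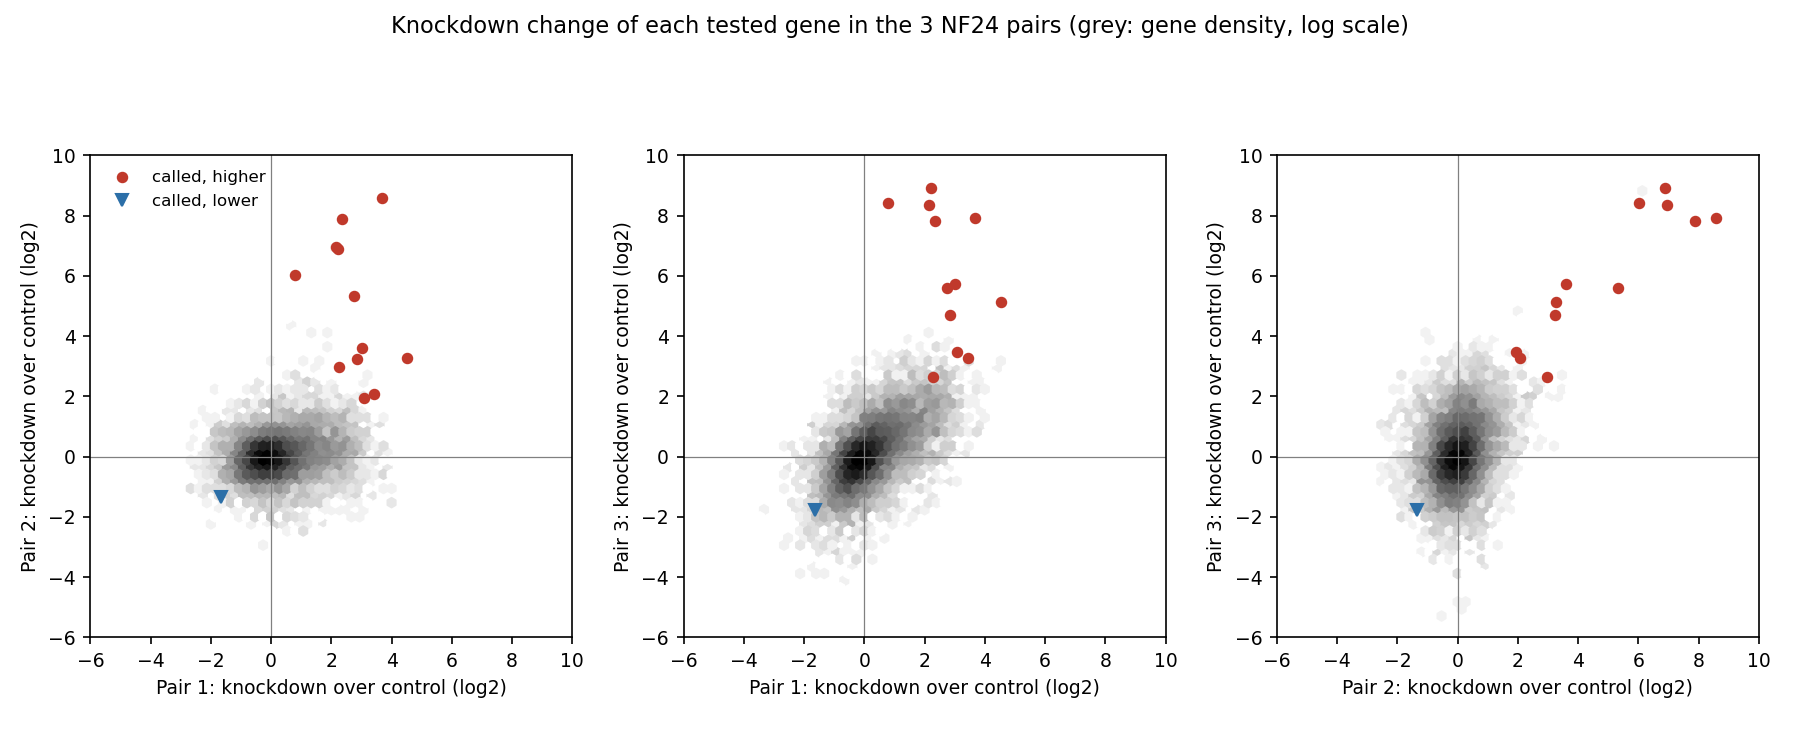
Log2 change, knockdown over control, of each of the 12548 tested genes in one NF24 pair against another (grey hexagons, number of genes on a log scale), with the 12 called higher (red) and the 1 called lower gene (blue triangle). The cloud is clearly tilted for pairs 1 and 3 (r = 0.565) and has little tilt for pairs 1 and 2 (r = 0.181).

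Genes were then taken that changed at least 2-fold in the same direction in every pair. Of the 12548 tested genes 264 (2.1%) were higher in every pair and 30 (0.239%) were lower. Among the 9346 genes that averaged at least 5 CPM over the NF24 libraries, 88 (0.942%) were higher in every pair and 13 (0.139%) were lower. Both sets were chosen on the tailbud levels, so their size at this stage is a description. The median log2 change was 1.99 for the 88 genes and -1.52 for the 13. Of the 88 genes 11 had passed the test, and of the 13 genes 1, where 13 of all 9346 genes of that level had passed. The test used the same libraries as the choice, so this overlap is not separate evidence.

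The libraries of the earlier stages did not enter this choice. In control caps 2912 of 11820 tested genes (24.6%) rose between NF10 and NF16 and 2618 (22.1%) fell, at an adjusted p under 0.05 in edgeR. Of the 88 genes higher at NF24, 12 (13.6%) rose in controls, 33 (37.5%) fell, 37 did neither and 6 were not tested. Of the 13 lower genes, 10 (76.9%) rose, 0 fell, 1 did neither and 2 were not tested. Among all 9346 genes of that level 28.6% rose and 22.2% fell. Genes raised in tailbud knockdown caps therefore included more that are turned down than turned up in differentiating control caps, and 10 of the 13 lowered genes were of the kind that is turned up. Of all 30 genes lower in every pair, low levels included, 13 (43.3%) rose, 0 fell, 9 did neither and 8 were not tested. Of all 264 genes higher in every pair, 16 (6.06%) rose, 81 (30.7%) fell, 106 did neither and 61 were not tested. Among all 12548 tested genes 23.2% rose and 20.7% fell.

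The knockdown change of the same genes at NF16 had mostly the same direction. Of the 88 higher genes, 84 could be fitted at NF16 and 70 of these (83.3%) were higher in the NF16 knockdown. Among the 9318 genes of at least 5 CPM that could be fitted there, 49.2% were higher. The median log2 change of the 84 genes at NF16 was 1.02. The 13 lower genes were all lower at NF16, with a median log2 change of -3.17. At NF10 the medians were 0.04 for the 82 higher genes fitted there and -0.04 for the 9 lower ones. The direction seen at tailbud was thus present at neurula and had no counterpart in the medians at gastrula.

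**Figure D4:**
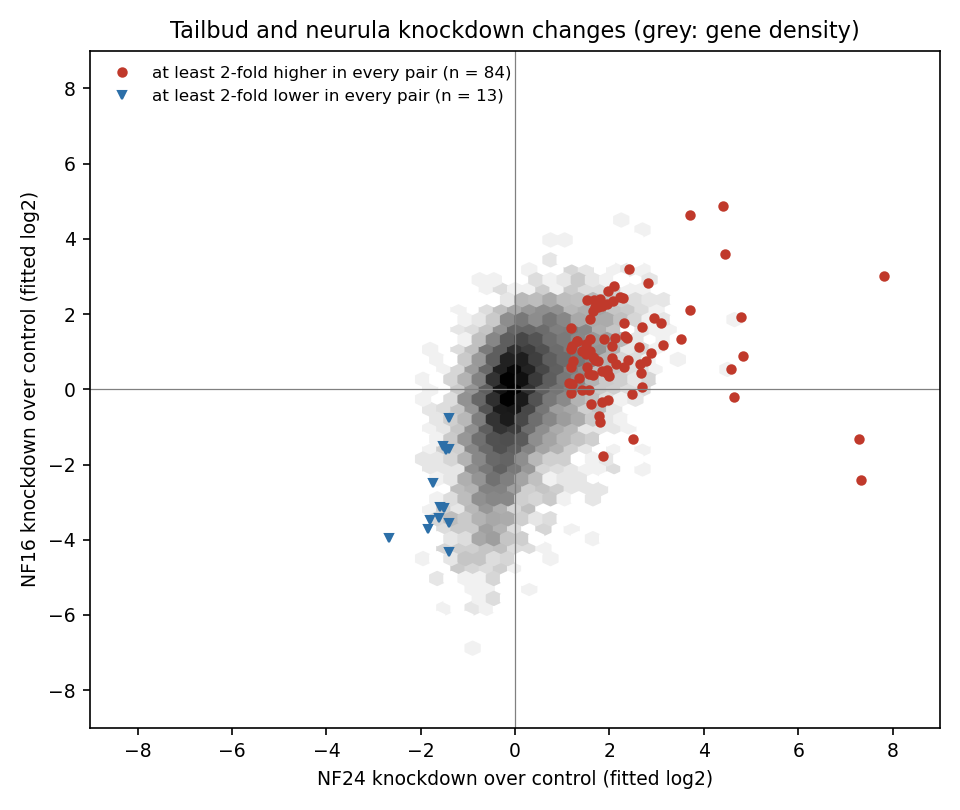
Fitted log2 change, knockdown over control, at NF24 (horizontal) and NF16 (vertical) for all tested genes fitted at both stages (grey hexagons, number of genes on a log scale). Genes averaging at least 5 CPM that were at least 2-fold higher (red, n = 84 fitted at NF16) or lower (blue, n = 13) in every NF24 pair are marked: 70 of the 84 lie above 0 at NF16 and all 13 lower genes lie below it.

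How much each pair contributed was followed by calling genes from the other pairs and reading them in the pair that was left out. From pairs 1 and 3 alone edgeR called 1292 genes higher (10.3%) and 901 lower (7.18%). In pair 2, 897 of the 1292 (69.4%) were also higher, against 50.4% of all tested genes, and 552 of the 901 (61.3%) were also lower, against 49.6%. Their median differences of log2 CPM in pair 2, with a prior count of 2, were 0.29 and -0.15. The median fitted log2 changes from pairs 1 and 3 were 1.55 and -1.02. These are unlike measures, and the genes were chosen for passing in pairs 1 and 3, which enters the latter medians. At NF16, 82.5% of the higher genes that could be fitted were higher in the knockdown and 89.8% of the lower genes were lower, against 50.8 and 49.2% of all tested genes fitted there. From pairs 2 and 3 edgeR called 37 genes higher (0.295%) and 1 lower (0.00797%). Of the 37, 30 (81.1%) were also higher in pair 1, against 49.9% of all tested genes. From pairs 1 and 2 edgeR called 13 higher (0.104%) and 2 lower (0.0159%). All 13 higher genes were higher in pair 3, against 50.5% of all tested genes, whereas 1 of the 2 lower genes kept its direction there. Of the higher genes from pairs 2 and 3, 27 could be fitted at NF16, and 55.6% of these were higher in the knockdown there. That is near the 50.8% of all tested genes. For the 11 fitted higher genes from pairs 1 and 2 the share was 72.7%. The lower genes of these calls were too few to read. The genes called from pairs 1 and 3 thus had small median differences in pair 2. Knockdown replicates 1 and 3, and not replicate 2, were the libraries whose unmapped shares (51.2 and 40.5%) and outside-gene shares (50.5 and 53.0%) exceeded all controls. Knockdown replicates 1 and 3 were also shallower than replicate 2, with 10692685 and 11874933 assigned fragments against 16488846. The part of these shares and of depth in the genes called from pairs 1 and 3 was not tested.

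Whether the knockdown effect at tailbud differed from that at neurula was tested as an interaction in a fit of all 16 libraries blocked by replicate number inside every stage. In this fit the libraries of all stages share the same estimate of spread. The NF24 knockdown effect alone was called for 343 genes in it, against 13 in the fit of the NF24 libraries. The part of the shared spread in the counts that follow was not tested. The knockdown effect differed between NF24 and NF16 for 1765 genes (14.1%) at an adjusted p under 0.05 in edgeR. It was higher at NF24 for 1109 of them and lower for 656. With total counts only in place of TMM factors the split was nearly even, at 931 higher and 896 lower. In absolute size the NF16 effect was larger for 1658 of these genes and the NF24 effect for 107. Both effects had the same sign, with NF16 larger, for 953 genes, and opposite signs, with NF16 larger, for 705. The median absolute log2 change of the 1765 genes was 0.30 at NF24 and 1.71 at NF16. The genes were selected for the difference, which enters these medians. The NF16 numbers showed no pairing of libraries, and with the block at NF10 and NF24 only the count was 1718. Without any block it was 222, and without NF24 replicates 1, 2 or 3 it was 906, 1144 and 1538.

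The effect at tailbud differed from that at gastrula for 12 genes (0.0956%), of which 11 were higher and 1 lower at NF24. This count moved to 208 without NF24 replicate 2, to 0 without NF24 replicate 3 (with 920 genes at unadjusted p under 0.05 in edgeR) and to 362 with DESeq2. Of the 13 genes called at NF24, 6 also differed between the NF24 and NF16 effects and 1 between the NF24 and NF10 effects. Over all tested genes the shares were 14.1 and 0.0956%. The 13 were selected on the NF24 libraries that also enter these differences, so the overlap is not separate evidence.

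Gene sets defined in control caps of the earlier stages gave a view that does not depend on the NF24 levels. The 2907 tested genes that rose in controls between NF10 and NF16 had a median log2 change of -0.12 at NF24, and 36.2% of them were higher in the knockdown, against 49.4% of all 12548 genes. In pairs 1, 2 and 3 the median was -0.17, 0.04 and -0.23. Most of these genes are well expressed, and well-expressed genes as a whole were lower: among the 9346 genes of at least 5 CPM 43.0% were higher, with a median of -0.06 and pair medians of -0.08, -0.01 and -0.06. The 2677 rising genes of that level had a median of -0.13, and 35.4% of them were higher. The 2595 genes that fell in controls had a median of 0.05, with 0.07, 0.01 and 0.08 in the pairs, and the 6053 genes that did neither had a median of 0.02. Of the called genes 2 were in the first set, 0 in the second, 8 in the third and 3 among genes that were not tested between NF10 and NF16. These sets held 2907, 2595, 6053 and 993 of the 12548 tested genes, of which 0.104% were called. No trait of the called genes was read from these counts. The genes that rose in controls thus had medians slightly below those of genes of like level in pairs 1 and 3, and not in pair 2. The amount was far below the 2-fold changes above. This set held 0 genes without reads at NF10, so it describes rising genes and not genes newly turned on.

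**Figure D5:**
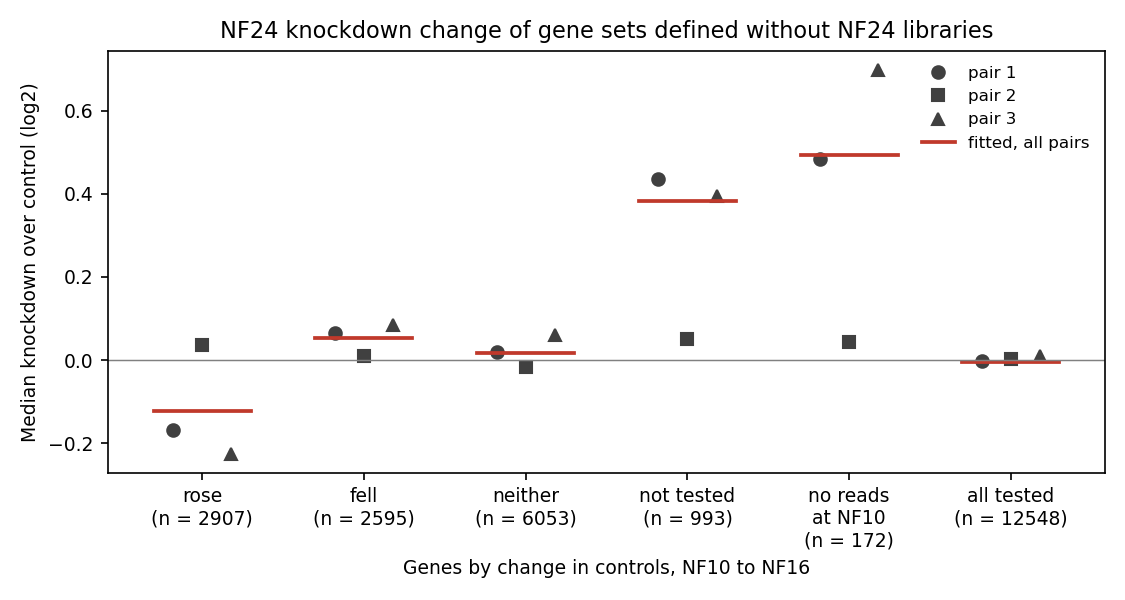
Median NF24 log2 change, knockdown over control, of gene sets defined by their change in control caps between NF10 and NF16, for each pair (grey symbols) and for the fit of all pairs (red line). The set that rose lies below 0 in pairs 1 and 3, the genes without reads at NF10 lie at 0.48, 0.04 and 0.70 in pairs 1, 2 and 3, and all tested genes lie at 0.

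Genes without any read in the 6 NF10 libraries numbered 887, and 172 of them reached the filter at NF24. EdgeR called 0 of the 172, with 28 at unadjusted p under 0.05, and DESeq2 called 8 of them with the block and 6 without it. Over all 12548 tested genes edgeR called 0.104%, with 2220 genes at unadjusted p under 0.05. DESeq2 called 6.91% of all tested genes with the block and 2.26% without it. No trait of the 172 was read from these counts. The median log2 change of the 172 was 0.49, and 68.6% of them were higher in the knockdown. The median in pairs 1, 2 and 3 was 0.48, 0.04 and 0.70. Of the 172 genes 162 averaged under 5 CPM, and all 3202 tested genes of that low level gave much the same picture, with 68.3% higher, a median of 0.47 and pair medians of 0.51, 0.09 and 0.47. The 993 genes that could not be tested between NF10 and NF16 in controls, which contain these 172, had a median of 0.38, with 0.44, 0.05 and 0.39 in the pairs. Genes without reads at NF10 were thus not set apart by these values from other genes with few fragments. The pairs with a higher median were those in which the knockdown library had a larger outside-gene share of mapped fragments than any control. These knockdown libraries also had fewer assigned fragments than knockdown replicate 2. The part of that share and of depth in the medians was not tested.

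The 887 genes together took 0.0316, 0.0378 and 0.0302% of the assigned fragments in knockdown replicates 1 to 3, against 0.0301, 0.0243 and 0.0167% in control replicates 1 to 3. All knockdown libraries were above all controls, the lowest of them by a narrow margin. The difference in means was 0.00954 percentage points (exact two-sided permutation test, p = 0.1, the smallest that 3 against 3 libraries allow; adjusted p 0.3 over 6 library measures by the Benjamini-Hochberg method). The separation was lost with both strands counted (difference 0.0049 percentage points, exact permutation p = 0.3) and when genes with at most 1 read in any NF10 library were taken (difference 0.0222 percentage points, exact permutation p = 0.5).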

How the data were processed

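RNA was measured in 16 X. tropicalis animal cap libraries, and groups and replicate numbers were taken from the sample titles. Per the labels and the study's methods, the authors depleted ribosomal RNA, made strand-directional libraries, aligned paired reads with STAR and counted fragments per gene in the same run over Xenbase gene models of assembly version 9. The processing notes name STAR 2.4.2a, whereas the methods name another version. The deposited values are raw counts, not normalized, for 14373 genes, with 3 count columns per library and 4 tally lines that were left out of library sizes. All libraries list 0 multimapping fragments, so genes with near-identical copies may be undercounted. The strand column with the larger total was used.

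A gene needed at least 1 read in 5 of the 6 NF24 libraries (75%). The test was glmQLFTest (edgeR 4.0.16, R 4.3.3) with TMM factors, the replicate number as a block and Benjamini-Hochberg adjustment over all genes tested. Standard errors were approximated as the log2 change over the square root of F, and their median was 0.223 for genes of at least 5 CPM. Changes within pairs were differences of log2 CPM with a prior count of 2. The numbers were taken to pair the libraries because deviations from the group means correlated at 0.387, 0.234 and 0.519 between same-numbered libraries; the labels name biological replicates but no shared clutch, and the numbers in the deposited names match within pairs 2 and 3 only. If replicates share a clutch, p-values measure a narrower spread. The block lowered the biological coefficient of variation to 0.277, from 0.392. Single library values were compared by exact permutation tests.

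Named genes were the 2 largest changes each way among called genes that averaged at least 5 CPM and whose groups did not overlap. Where fewer than 2 passed, the smallest unadjusted p filled the place. The members and lists were chosen with earlier results of these data known. Alternatives were DESeq2 1.42.0, no block, other scalings, filters and strand columns, thinning, one fit of all libraries and leaving out replicates. Code was tested on simulated data.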

Additional observations from a re-analysis of the deposited data

Results flagged for a closer look

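The tailbud knockdown effect was called as differing from the neurula effect for 1765 genes and from the gastrula effect for 12 genes. Each call came from an interaction test in edgeR over all 16 libraries, with the same estimate of spread for all stages. In that fit the NF24 effect alone was called for 343 genes, against 13 in the fit of the NF24 libraries. The labels do not say whether the stages were sampled from the same embryos, and a part of separate experiments in these differences was not tested.

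Read categories that no gene count uses were above the highest NF24 control in some knockdown libraries. Fragments tallied as unmapped made up 51.2% of all fragments in knockdown replicate 1 and 40.5% in knockdown replicate 3, where the highest control had 34.0%. Fragments outside genes made up 50.5% of the mapped fragments in knockdown replicate 1 and 53.0% in knockdown replicate 3, where the highest control had 45.8%. Fragments on the strand opposite to a gene made up 4.58% of the stranded counts in knockdown replicate 1, where the highest control had 4.05%. Knockdown replicate 2, with 31.3, 42.7 and 1.76%, did not exceed the controls in these categories. Between the groups the differences gave exact two-sided permutation p of 0.3, 0.2 and 0.8 for the unmapped, outside-gene and opposite-strand shares (n = 3 each; adjusted p 0.36, 0.3 and 0.8 over 6 measures).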

How the results depend on the processing

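The number of genes called at NF24, 13 with edgeR and the replicate block, was the least stable value. With no replicate block it was 0 (1259 at unadjusted p under 0.05). DESeq2 with the block called 867 and without it 283, a fit of all 16 libraries 343, and a test with no filter 147. Thinning to the smallest total gave 20. RLE factors gave 7, total counts only 6, filterByExpr 4 and the filter over all 16 libraries 4. Without replicate 1, 2 or 3 it ranged between 15 and 2193, and with no block and one library left out between 0 and 4, the 4 genes without knockdown replicate 1 sharing 0 with the 13. Alternatives chosen after seeing the data gave 24 (adjusted-deviance dispersion) and 5 (robust empirical Bayes).

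The difference from NF16 was called for 1765 genes, for 222 with no replicate block, and for 906 to 1538 without one NF24 replicate. The difference from NF10 was called for 12 genes, for 0 with no block (609 at unadjusted p under 0.05), for 362 with DESeq2 and for 0 to 208 without one NF24 replicate. The median log2 change of genes that neither rose nor fell in controls, 0.02, turned to -0.00479 with both strands counted and to -0.00599 after thinning. Of 167 values under alternatives 94 were classed as like the main value, by rules that differed between kinds of value. Counts of genes had to stay within a fixed ratio, named genes on their side of the threshold and set medians within the replicate spread. The fragment share had only to keep its sign. The median of all tested genes was classed so by default, although it moved from -0.005783 to 0.008714 with total counts only. The 94 is therefore not a measure of stability. Each of the 4 named genes kept its direction under all 22 alternatives, but passed in only 14, 9, 6 and 7 of them, in the order of the report. The cause of these changes was not tested, and the depth of 10692685 fragments in the shallowest library limits genes of a few CPM.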
